A study of Mus musculus with 6 samples.

Results

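The cytosolic ribosomal protein genes encode the proteins that, with ribosomal RNA, build the small (40S) and large (60S) subunits of the cytoplasmic ribosome. They were chosen by symbol alone, as protein-coding genes on chromosomes 1 to 19, X and Y whose RefSeq symbol is Rpl or Rps followed by a number and an optional a or x, or one of Rplp0, Rplp1, Rplp2 and Rpsa. The rule found 76 of 21883 protein-coding genes, 46 of the large subunit and 30 of the small subunit. It leaves out ribosomal proteins with other names, such as Fau, and it keeps out the mitochondrial ribosome.

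The series mapped chromatin by CUT&Tag, in which an antibody directs a transposase to its target so that the released DNA marks the place, in OG2X129 mouse embryonic fibroblasts during chemical reprogramming. Its 6 samples form 3 groups of 2: H3K27ac in cells given CD, H3K27ac in cells given DMSO, the solvent, and a Flag antibody in cells overexpressing Flag-tagged Rxra. H3K27ac is an acetylated histone found at promoters and enhancers in use. CD3254 in the series title is a ligand that activates retinoid X receptors, of which Rxra is the alpha form. The labels give no day of reprogramming, no CD or DMSO treatment for the Flag-Rxra cells and no origin of the replicates, so separate cultures cannot be assumed. The Flag-Rxra signal is that of an overexpressed, tagged receptor, and no Flag library from cells without the transgene was used here.

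Ribosomal protein genes are short, compact and transcribed at very high rates in dividing cells, because every new ribosome needs a copy of nearly all of their products. Their mRNAs begin with a cytosine and a run of pyrimidines, the TOP motif, through which mTOR signalling controls their translation. Their promoters often carry sites for GABP, an ETS factor, and for YY1 and Sp1, and many of the genes hold small nucleolar RNA (snoRNA) genes in their introns. Rxra acts mostly as the partner of other nuclear receptors, and such pairs bind repeats of the half-site AGGTCA or GGGTCA.

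The promoter windows of 4 members are shown, each 250 bases before and 50 bases from the annotated start, which is base 251, from RefSeq on GRCm38.p6. Rpl31 (chr1:39367601-39367900, plus strand) and Rpl15 (chr14:18270937-18271236, minus strand) had the strongest Flag-Rxra peaks among the members, Rpl27 (chr11:101441995-101442294, plus strand) had a strong peak without any of the capitalised motifs, and Rpl6 (chr5:121204251-121204550, plus strand) had no Flag-Rxra peak in either replicate. Capitals mark, on either strand, the ETS core CCGGAAG, the YY1 core AAGATGGC, the half-sites AGGTCA and GGGTCA, the pyrimidine run CTTTCC and TATAAA.
Rpl31: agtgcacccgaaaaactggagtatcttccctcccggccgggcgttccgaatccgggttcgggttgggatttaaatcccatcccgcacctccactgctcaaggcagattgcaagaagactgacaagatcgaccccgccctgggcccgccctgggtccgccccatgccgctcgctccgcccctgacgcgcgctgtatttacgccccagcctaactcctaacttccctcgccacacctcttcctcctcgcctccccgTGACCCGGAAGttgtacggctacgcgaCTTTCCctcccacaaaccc
Rpl15: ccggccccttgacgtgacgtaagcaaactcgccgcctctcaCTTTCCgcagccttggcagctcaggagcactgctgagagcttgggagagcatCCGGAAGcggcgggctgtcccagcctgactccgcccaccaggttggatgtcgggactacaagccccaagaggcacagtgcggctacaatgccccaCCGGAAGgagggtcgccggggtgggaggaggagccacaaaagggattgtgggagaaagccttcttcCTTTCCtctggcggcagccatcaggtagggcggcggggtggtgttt
Rpl27: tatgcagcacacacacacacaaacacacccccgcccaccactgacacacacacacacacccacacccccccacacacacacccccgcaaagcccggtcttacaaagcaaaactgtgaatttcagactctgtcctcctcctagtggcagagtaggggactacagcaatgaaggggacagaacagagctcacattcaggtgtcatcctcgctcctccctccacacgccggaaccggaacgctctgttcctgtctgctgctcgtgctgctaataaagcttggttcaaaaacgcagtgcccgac
Rpl6: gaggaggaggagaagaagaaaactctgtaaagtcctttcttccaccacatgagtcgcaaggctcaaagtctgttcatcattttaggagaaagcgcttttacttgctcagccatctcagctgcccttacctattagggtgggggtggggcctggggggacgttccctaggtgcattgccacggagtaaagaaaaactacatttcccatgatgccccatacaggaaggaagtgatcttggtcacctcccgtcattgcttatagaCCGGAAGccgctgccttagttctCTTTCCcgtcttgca
In Rpl31 the capital run joins a reverse GGGTCA half-site, at bases 4 to 9 after the start, to an overlapping ETS core at bases 8 to 14. Rpl15 has ETS cores at -157 and -62 and CTTTCC at 4 bases after its start. Rpl6 carries an ETS core and CTTTCC too, at 12 and 35 bases after its start, so these letters were present with and without a called peak.

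Of Flag-Rxra, 28243 peaks were called in replicate 1 and 45999 in replicate 2, and 17623 replicate 1 peaks, 62.4%, overlapped a replicate 2 peak by 1 bp or more. These are called shared peaks below. H3K27ac had 1 list per condition for both replicates, with 104437 regions covering 37.3 Mb in CD and 75482 regions covering 31.1 Mb in DMSO. All values are the authors' peak calls: fold is a peak's enrichment over the background their caller estimated, and −log10 q is the strength of the call. The lists hold no read counts, so depth is unknown. Of 14 fibroblast markers, 7 had a CD region and 6 a DMSO region within 1 kb of an end. The exact binomial intervals, 23.0 to 77.0% and 17.7 to 71.1%, contain the 38.3% and 35.8% of all protein-coding genes. The counts therefore do not single out fibroblast genes. Of 6 muscle and of 6 pluripotency markers, 1 each had a CD region and 0 a DMSO region. Epithelial (3 CD, 2 DMSO of 6), macrophage (3 and 1 of 6), endothelial (2 and 4 of 6) and neural markers (0 and 1 of 6) were also marked in part, and their part in the results was not tested.

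The members lie on 19 chromosomes, 14 of them on chromosome 7 and 7 on chromosome 11. Their median length was 3169.5 bp, from 982 to 11774 bp, against 17170 bp for all protein-coding genes, so that both ends of a member often fall close together. Of the 76, 29 held 58 snoRNA genes, and 28 had an end of another protein-coding gene within 1 kb of their own.

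Most ribosomal protein genes had a Flag-Rxra peak at an end. Replicate 1 had a peak within 1 kb of an end of 61 of 76 members, 80.3% (exact 95% binomial interval 69.5 to 88.5%), where all protein-coding genes gave 41.7%. Replicate 2 had one at 53 members, 69.7% (58.1 to 79.8%), against 42.1%. A shared peak stood at 43 members, 56.6% (44.7 to 67.9%), against 32.6% of all genes, and these members are called bound below. The word means a called peak, and the intervals cover counting error only.

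The share depended on which genes stood beside it. H3K27ac-marked genes were bound more often in general: of all genes with an H3K27ac region within 1 kb of an end in both lists, 65.5% were bound, and of the others 23.7%. The 52 members marked in both lists were bound in 29 cases, 55.8% (41.3 to 69.5%), an interval that contains the 65.5%. The 24 members not marked in both lists were bound in 14 cases, 58.3% (36.6 to 77.9%), above the 23.7% of the other genes. Over all genes, 53.7% were bound where another protein-coding gene had an end within 1 kb and 25.6% where none did. Members were bound in 17 of 28 cases (60.7%) with such a neighbour and in 26 of 48 cases (54.2%) without one. Of the 24, 8 were marked in CD alone, 11 in DMSO alone and 5 in neither list. Only these 5 had no called region within 1 kb of an end. The 23.7% is not a matched reference, because the genes behind it were marked less. Their median bases under H3K27ac regions within 2.5 kb were 0 in CD and 0 in DMSO. The 24 members had medians of 181.5 and 777. Differences between these groups of members were not tested.

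Bound members were spread over both subunits: 27 of 46 large subunit genes (58.7%) and 16 of 30 small subunit genes (53.3%). Hosts of snoRNAs were bound in 17 of 29 cases (58.6%) and the others in 26 of 47 (55.3%). Genes of the mitochondrial ribosome, which translates mitochondrial mRNAs, were bound in 46 of 78 cases (59.0%), and genes of the proteasome, the protease that degrades ubiquitinated proteins, in 23 of 39 (59.0%). The interval for the ribosomal protein genes contains both of these shares.

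**Figure D1:**
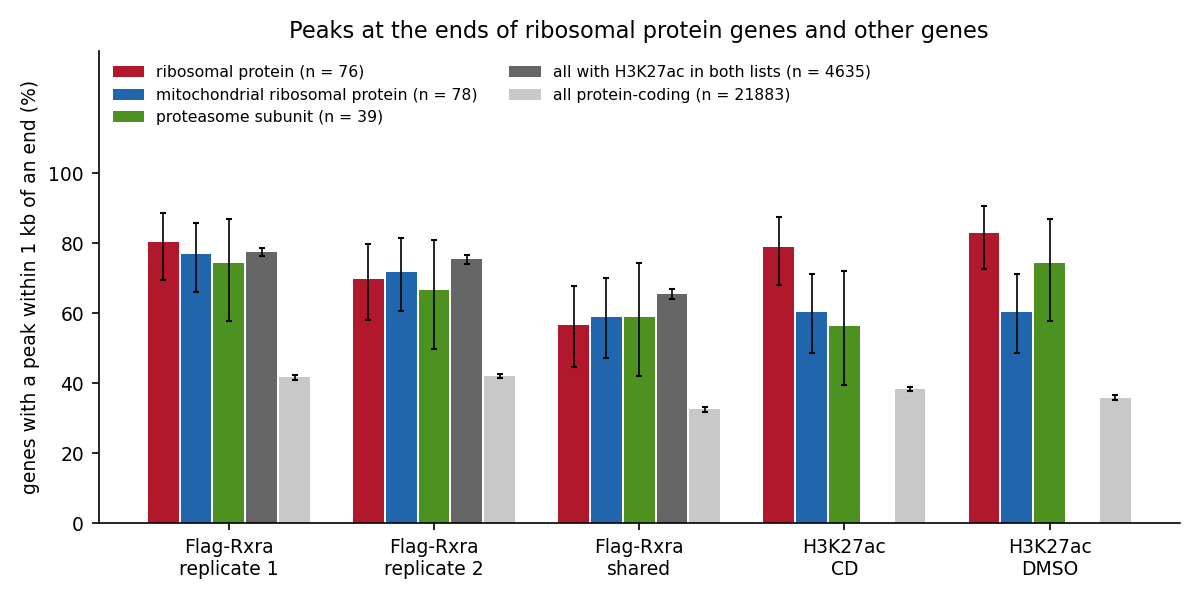
Share of genes, in percent, with a Flag-Rxra peak (replicate 1, replicate 2, shared) or an H3K27ac region (CD, DMSO) within 1 kb of an end, for 76 ribosomal protein genes, 78 mitochondrial ribosomal protein genes, 39 proteasome genes, the 4635 genes marked in both H3K27ac lists (Flag-Rxra only) and all 21883 protein-coding genes. Bars are shares and error bars exact 95% binomial intervals; ribosomal protein genes stand at 56.6% for shared peaks and at 78.9% and 82.9% for H3K27ac, above all genes in each list.

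The strongest peaks of the members were at Rpl31, Rpl15 and Rps29, in this order by the mean rank of fold over both replicates. The gene of Rpl31, a large subunit protein near the exit of the nascent chain, had folds of 16.6 (replicate 1) and 35.5 (replicate 2). Its peak ran from 39367695 to 39368106 on chromosome 1, with summits 16 and 41 bp upstream of the start, inside the window printed above. Rpl15, a core protein of the large subunit, had folds of 18.8 and 25.9, and both summits lay 134 bp upstream of the start, between its pair of ETS cores. The end of Nkiras1, a regulator of NF-kB signalling, lies within 1 kb of Rpl15, so that peak cannot be assigned to 1 gene. Rps29, a small zinc-binding protein of the 40S subunit, had folds of 16.4 and 26.6.

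The next in rank were Rpl27 (13.5 and 24.0), Rpl37 (17.8 and 18.5), Rpl30 (12.5 and 25.2) and Rps16 (11.9 and 27). Rpl27 and Rpl37 are proteins of the large subunit. At Rpl27 the summits lay 33 and 6 bp upstream of the start, in the window without a capital. Rps25 (16.2 and 18.2), Rps21 (13.6 and 19.9), Rps27a (11.7 and 21.7), Rpl27a (17.2 and 15.6) and Rps13 (11.4 and 20.6) completed the 12 members with the best mean rank of fold. Rps27a is made as a fusion with ubiquitin. Of these 12, Rpl15 and 5 others had an end of another protein-coding gene within 1 kb, so that their peaks cannot be assigned to 1 gene either: Rpl31 (Tbc1d8), Rpl37 (Card6), Rps21 (Cables2), Rps25 (Ccdc84 and Trappc4) and Rps27a (Clhc1 and Mtif2). Among the 4 bound members of lowest rank were Rpl36 (7.9 and 10.1), Rpl23 (7.97 and 9.78) and Rpl13a (7.36 and 9.98).

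The proteins of the P stalk, which recruits elongation factors to the large subunit, were all bound. Rplp0 had folds of 10.0 and 13.7, Rplp1 of 12.6 and 15.3 and Rplp2 of 8.03 and 14.8. Rpsa, a 40S protein also known as the laminin receptor, had folds of 10.8 and 9.77 and was 1 of 4 members, with Rps9, Rpl27a and Rpl39, whose fold was higher in replicate 1. Rpl11 and Rpl5 form a complex with 5S ribosomal RNA that binds Mdm2 when ribosome assembly is disturbed. Rpl11 was bound, with folds of 9.63 and 17.3 and summits 147 and 142 bp upstream of its start, while Rpl5 had no peak at an end in either replicate. Rps6, the substrate of the S6 kinases, had a peak in replicate 1 only, with a fold of 8.71. Rpl3, which shapes the peptidyl transferase centre, had the largest ratio of folds between replicates, with 6.11 in replicate 1 and 24.7 in replicate 2.

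Over the 43 bound members, fold ran from 6.11 to 18.8 in replicate 1, with a median of 10.4, and from 8.55 to 35.5 in replicate 2, with a median of 15.0. All bound genes had medians of 11.3 and 15.7. The members' peaks were therefore no stronger than those of other bound genes, although they were present more often than over all genes. Replicate 2 had the higher median over all bound genes too, and it gave the higher fold at 39 of the 43 members. Their median width was 450 bp (465 bp over all bound genes), the summit lay a median of 144 bp from the nearest end (137 bp), and the 2 replicates' summits stood a median of 54 bp apart (60 bp).

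**Figure D2:**
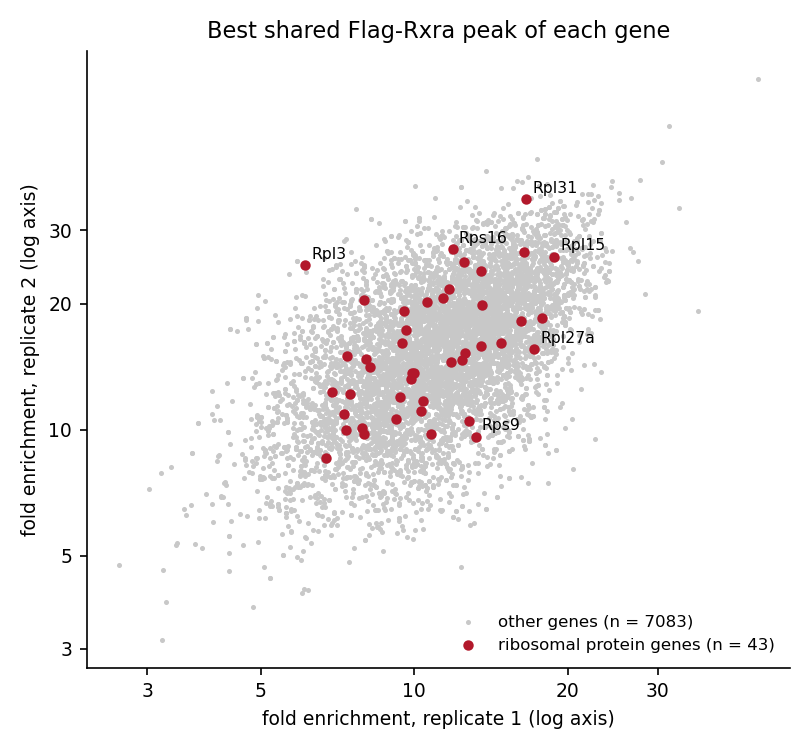
Fold enrichment of the best shared Flag-Rxra peak within 1 kb of an end, replicate 1 (horizontal, log axis) against replicate 2 (vertical, log axis), for 43 bound ribosomal protein genes (red) and 7083 other bound genes (grey), 1 point per gene. The red points lie within the grey cloud, with Rpl31 highest in replicate 2 at 35.5 and Rpl3 apart at 6.11 and 24.7.

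The 33 members that were not bound fell into 4 sets. A peak in replicate 1 only stood at 15: Rpl21, Rpl22, Rpl24, Rpl26, Rpl29, Rpl35, Rpl36a, Rpl37a, Rpl7a, Rps10, Rps12, Rps28, Rps3, Rps4x and Rps6. Their folds ran from 6.17 at Rpl26 to 10.5 at Rps3. A peak in replicate 2 only stood at 7, among them Rpl19 (5.19), Rpl23a (10.9), Rpl38 (12.6), Rpl9 (12.5) and Rps24 (22.0). Rps24 is the clearest case of disagreement, since its fold of 22.0 in replicate 2 was near those of the best bound members. Rpl4, Rps15 and Rps15a had peaks in both replicates that did not overlap. No peak within 1 kb of an end, in either replicate, was found at 8: Rpl5, Rpl6, Rpl8, Rpl17, Rpl32, Rps2, Rps7 and Rps23. Of all 21883 genes, 9115 had a replicate 1 peak, 9210 a replicate 2 peak and 7126 a shared peak. The 4 sets were not counted over all genes, so their sizes are not read as particular to the members.

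Gene ends can miss the start in use. Of the 56 members with a start in the promoter table, 31 (55.4%, interval 41.5 to 68.7%) had a shared peak within 1 kb of the start, against 33.3% of 17491 genes. Among these were 3 members without a shared peak at an end, whose annotated start lies inside the gene's outer bounds: Rpl19 (folds 6.56 and 11.2), Rpl38 (6.35 and 13.1) and Rps2 (4.97 and 7.07). The start of Rpl19 lies 4707 bp inside and that of Rps2 1942 bp inside, so Rps2 had Flag-Rxra peaks at its start although none at its ends. With these 3, 46 of 76 members had a shared peak at an end or at the start. Within 2.5 kb of an end, 50 members (65.8%, against 37.0%) had a shared peak, and the 7 added were Rpl17, Rpl22, Rpl23a, Rpl24, Rpl32, Rpl38 and Rps2. Within 50 kb, 71 members (93.4%, against 68.1% of all genes, 91.9% of genes marked in both lists and 93.6% of mitochondrial ribosomal protein genes) had one, and Rpl4, Rps12, Rps23 and Rps24 were among those that did not. A member had a median of 3 shared peaks within 50 kb, against 1 over all genes. Members also had a median of 4 other protein-coding genes with an end within 50 kb, against 3 over all genes. The peak counts were not matched for this.

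**Figure D3:**
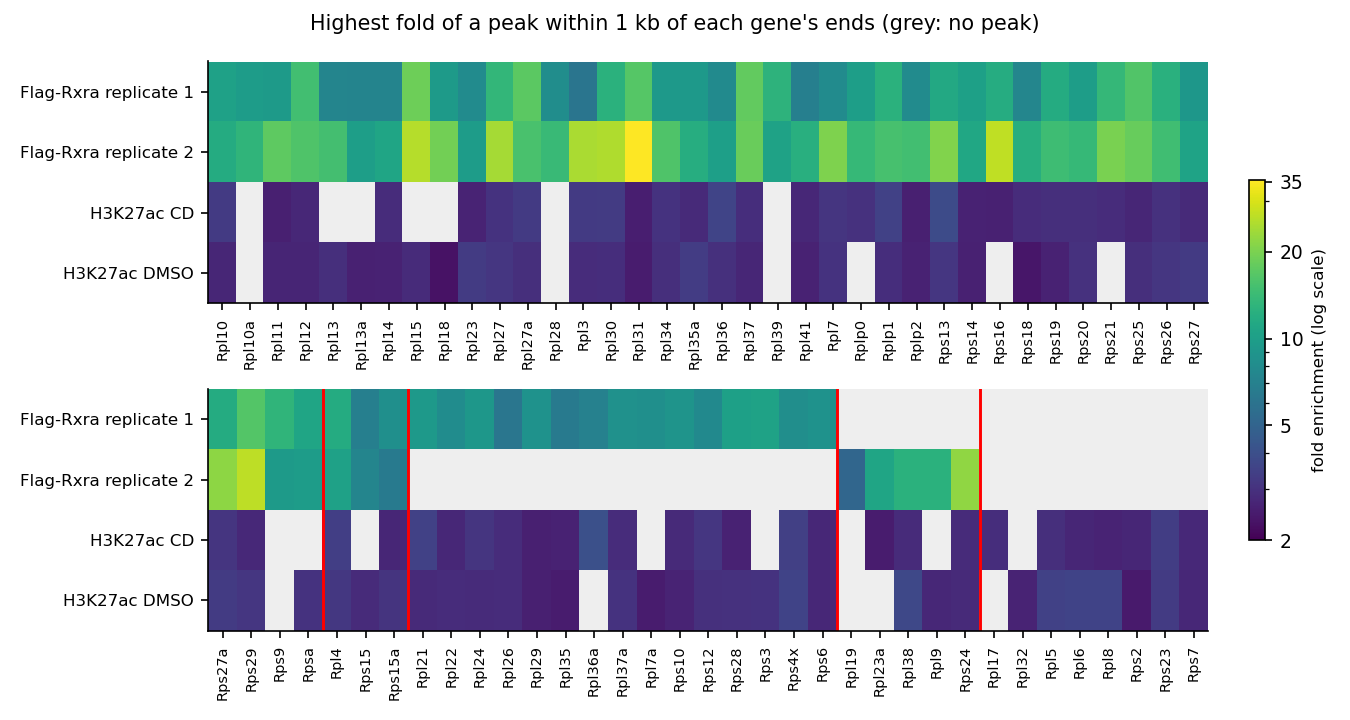
Highest fold (colour, log scale) of a peak within 1 kb of an end of each of 71 members (the rest are not drawn), 1 column per gene and 1 row per list, with grey where no peak was called. Red lines separate, from left to right, 40 bound members, 3 with peaks that did not overlap, 15 with a peak in replicate 1 only, 5 in replicate 2 only and 8 with none; the H3K27ac rows, whose folds stay between 2.30 and 4.03, have regions in all 5 sets.

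Measured from the annotated start, Flag-Rxra peaks sat just upstream. In replicate 1, 42 of 56 members (75.0%) had a peak over the 100 bases before the start, against 33.3% of all genes, and in replicate 2, 33 of 56 (58.9%) against 31.0%. For the 31 bound members with a known start, the median summit lay 89 bp upstream in replicate 1 and 85 bp upstream in replicate 2, and 23 and 26 of the summits lay within 250 bp. Summits over 1 kb from the start belonged to Rpl18, Rpl41 and Rps18, which were bound at an end but not within 1 kb of the start. Over the 28 bound members with a replicate 1 summit within 1 kb of the start, 75.0% of the summits were upstream, and over 5193 genes chosen in the same way 65.3%.

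Motifs known for ribosomal protein genes were more frequent in the members' promoter windows than over all genes. The ETS core CCGGAAG was found in 22 of 56 windows (39.3%, all genes 11.9%), CTTTCC in 26 (46.4%, 25.8%) and AAGATGGC in 5 (8.93%, 3.21%): Rpl13a, Rpl22, Rpl35a, Rps15a and Rps27. A cytosine at the annotated start followed by 4 pyrimidines stood in 12 (21.4%, 2.17%), among them Rpl15, Rplp2, Rps6, Rps21 and Rps27. The half-site AGGTCA occurred in 5 windows (8.93%, 14.5%), of Rpl22, Rpl24, Rpl35a, Rps3 and Rps4x, and of these only Rpl35a was bound. GGGTCA occurred in 8 (14.3%, 13.4%): Rpl5, Rpl11, Rpl31, Rpl34, Rps3, Rps15, Rps21 and Rps25. Direct repeats of 2 AGGTCA half-sites with 1, 4 or 5 bases between them were in 0 of 56 windows, and in 9, 0 and 1 of the 17491. These exact repeats were rare over all genes too, so 0 of 56 shows nothing particular to the members. Both strands were searched for each motif but the pyrimidines at the start, and no match says only that these letters are not in the window.

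The ETS core was in 13 of 31 bound members with a known start (41.9%) and in 9 of 25 others (36%). Bound again means a shared peak at a gene end. Rpl18, Rpl41 and Rps18 thus counted as bound, and Rpl19, Rpl38 and Rps2, with a shared peak at the start, as others. All of these but Rpl18 held the ETS core, so sorting by peaks at the start would change both counts. The Sp1 core GGGCGG, not capitalised above, was in 23 of 31 bound windows (74.2%) and in 10 of 25 others (40%), against 46.3% of all genes. TATAAA was in 6 windows (10.7%, all genes 13.3%), those of Rpl22, Rpl36a, Rpl39, Rplp0, Rps2 and Rps28. The windows held a median of 57.5% G and C (56.3% over all genes) and 21 CpG dinucleotides (13). Bound members had medians of 59.3% and 22, and the others 56.0% and 20, so base content differed along with the Sp1 core. The motif differences between bound and other members were not tested.

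H3K27ac regions covered most of the members in both conditions. A CD region lay within 1 kb of an end of 60 of 76 members (78.9%, interval 68.1 to 87.5%, all genes 38.3%), and a DMSO region of 63 (82.9%, 72.5 to 90.6%, all genes 35.8%). Both lists marked 52 (68.4%, all genes 21.2%). CD alone marked 8, among them Rpl17, Rpl23a, Rpl36a, Rplp0, Rps16 and Rps21. DMSO alone marked 11, among them Rpl7a, Rpl9, Rpl13, Rpl13a, Rpl15, Rpl18, Rpl32, Rps3, Rps15 and Rpsa. Of all 21883 genes, 8386 had a CD region, 7842 a DMSO region and 4635 both, so more genes were marked in CD alone than in DMSO alone. The members' split of 8 and 11 was not tested and is not read as particular to them. Mitochondrial ribosomal protein genes had a region in 60.3% of cases in each list, and proteasome genes in 56.4% in CD and 74.4% in DMSO. No region lay within 1 kb of an end of Rpl10a, Rpl19, Rpl28, Rpl39 and Rps9 in either list, and 4 of these 5, all but Rpl19, were bound by Flag-Rxra.

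Most of these H3K27ac calls were near the limit of the lists. The highest −log10 q of a member's region was 3.45 in CD, at Rpl36, and 3.66 in DMSO, at Rpl38, and the medians of the best region per member were 1.5 and 1.61, close to the lists' lower limit of 1.00. A region of −log10 q 2 or more stood at 11 members in CD (14.5%, all genes 6.65%) and at 18 in DMSO (23.7%, all genes 8.84%). Fold ran from 2.48 to 4.03 in CD (median 2.88) and from 2.30 to 3.74 in DMSO (median 2.89). A member marked in 1 list alone can thus have fallen just under the limit in the other. Flag-Rxra lists stopped at a −log10 q of 5.00, so levels are not compared between the marks. Of the 43 shared peaks at bound members, 17 overlapped a CD region, 26 a DMSO region, 12 both and 12 neither. This overlap was not counted for all bound genes, so it is not read as particular to the members.

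Just after the start, fewer members had a called region in CD than in DMSO. In DMSO, 33 of 56 members (58.9%) had a region over the first 100 bases from the start, against 15.4% of all genes, and in CD 20 of 56 (35.7%) against 12.4%. The CD regions were most frequent 300 to 399 bases downstream, at 24 members (42.9%), where DMSO regions stood at 29 (51.8%). CD counts in the bins from 0 to 299 bases were 20 to 21, so its highest bin rests on few members. With 1 list per condition there is no replicate error for this difference, and it was not tested. Cutting the CD list to the covered length of the DMSO list left 32.1% against 58.9%. At −log10 q of 2 or more, the shares were 7.14% in CD (all genes 2.48%) and 16.1% in DMSO (all genes 4.58%).

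**Figure D4:**
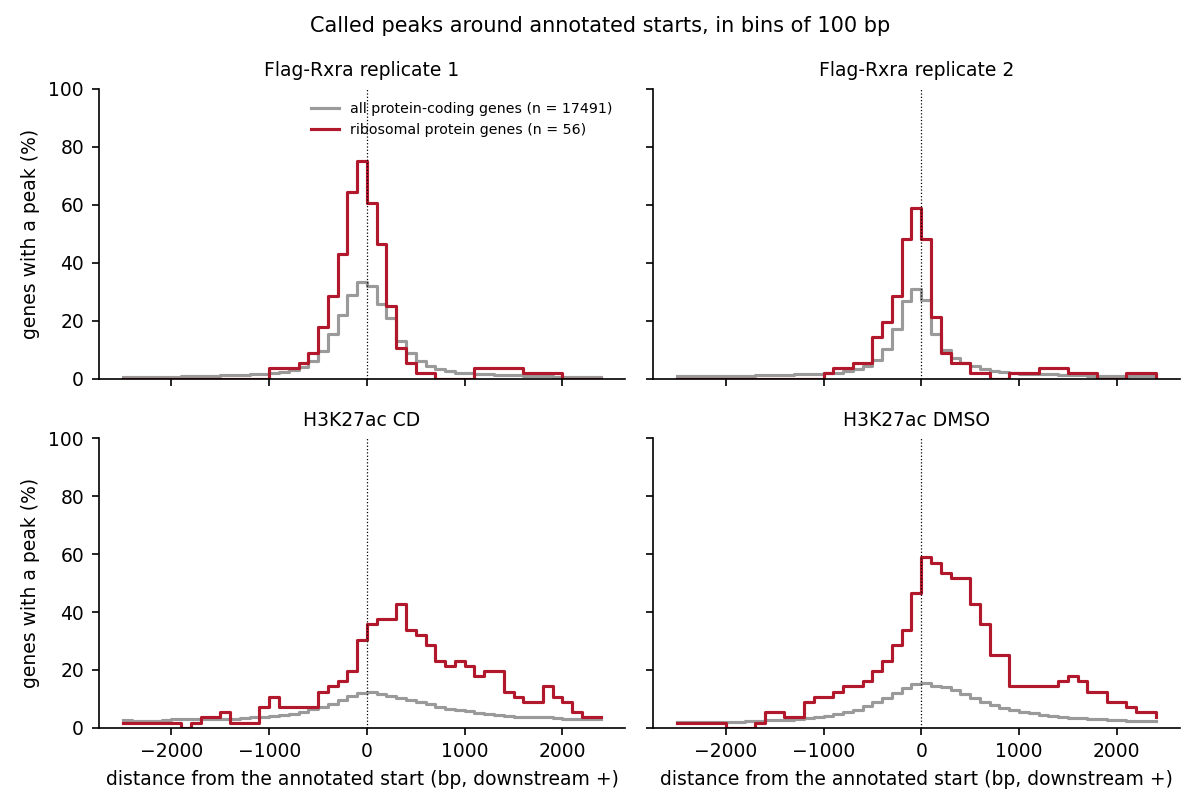
Share of genes, in percent, with a called peak in each 100 bp bin from 2500 bp upstream to 2500 bp downstream of the annotated start (horizontal axis, bp), 1 panel per list, for 56 ribosomal protein genes (red) and 17491 protein-coding genes (grey). Flag-Rxra peaks reach 75.0% and 58.9% of the members in the bin before the start. H3K27ac regions reach 58.9% just after the start in DMSO, and 42.9% further downstream in CD, where DMSO has 51.8%.

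The bases under H3K27ac regions gave the size of the CD to DMSO difference for each member. Within 2.5 kb of the ends, the members' mean was 704.4 bases for CD and 850.8 for DMSO (medians 675 and 806), where all genes had means of 319.8 and 320.1. CD covered more at 34 members (44.7%, all genes 35.8%), DMSO more at 41 (53.9%, all genes 32.1%), and Rps9 was equal at 0. The median CD minus DMSO difference was -132 bases, against 0 over all genes. Genes marked in both lists leaned the same way, with 45.4% covered more in CD and 54.5% more in DMSO, so the members' split is near that of marked genes.

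Large subunit members carried most of the excess in DMSO, with 17 covered more in CD and 29 more in DMSO and a median difference of -222 bases. Small subunit members had 17 more in CD and 12 more in DMSO, with a median of 188 bases. Members with a close protein-coding neighbour had 7 more in CD and 21 more in DMSO (median -405.5), and members without one 27 and 20 (median 111). Among all genes with such a neighbour, 44.0% were covered more in CD and 43.5% more in DMSO. None of these splits has a replicate error.

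The largest excess in DMSO within 2.5 kb was at Rps15a, a 40S protein gene, with 1743 bases in CD and 3383 in DMSO. Rpl15 had 0 and 1521 bases and Rpsa 0 and 1432, so that neither had a CD region in this window. Rpl4, a core large subunit protein and host of 5 snoRNA genes, had 347 and 1623, and Rpl24 had 673 and 1767. In the other direction, Rpl8 had 1305 bases in CD and 204 in DMSO, and Rps26 1319 and 256. Rps6 (2120 and 1087), Rpl26 (1928 and 911) and Rps7 (1065 and 220) followed. Rpl8 and Rps7 had no Flag-Rxra peak at an end, Rps6 and Rpl26 had one in replicate 1 only, and Rps26 was bound, so the CD excess occurred with and without Flag-Rxra peaks. At −log10 q of 2 or more, Rpl8 and Rps26 had more bases in DMSO and Rps15a more in CD, the difference was 0 at Rpl15, Rpsa, Rpl24, Rps6, Rpl26 and Rps7, and of the members named here only Rpl4 kept its direction, at -1062 bases.

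Within 50 kb, where neighbouring genes and distal regions enter, CD covered more at 39 members (51.3%) and DMSO at 37 (48.7%). All genes gave 59.0% and 31.5%, and genes marked in both lists gave 60.7% and 39.2%. The median difference of the members was 30 bases, against 262 over all genes. Cutting the CD list to the covered length of the DMSO list moved the members to 28 and 47, with all genes at 46.0% more in CD. The large subunit members again had more in DMSO at 27 of 46 and the small subunit members more in CD at 20 of 30, with medians of -236.5 and 418 bases.

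Rpl28 had the largest excess in CD within 50 kb, with 7121 bases against 1450 in DMSO, although no region of either list lay within 1 kb of its ends. Rpl41, which encodes a very short basic peptide of the ribosome, had 5829 and 2644, and Rps19, a 40S protein mutated in Diamond-Blackfan anaemia, 6590 and 3802. Rps20 (6700 and 4382) and Rpl6 (5683 and 3374) were also among the 6 of largest CD excess. Rpl15 had the largest excess in DMSO, with 1347 in CD and 5367 in DMSO, before Rps15a (2159 and 5780), Rpl30 (2199 and 5394), Rps27 (1814 and 4931), Rpsa (1560 and 4258) and Rpl11 (3079 and 5094). Part of this is the 2.5 kb window itself: from 2.5 to 50 kb alone the CD minus DMSO difference was -2499 bases at Rpl15, -1981 at Rps15a, -2121 at Rpl30 and -1266 at Rpsa. At −log10 q of 2 or more, Rpl30, Rps20 and Rpl6 changed direction, Rpl28 and Rpsa had a difference of 0, and Rpl15 (-960), Rps15a (-135), Rps27 (-945), Rpl11 (-1034), Rpl41 (158) and Rps19 (1243) had smaller ones.

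**Figure D5:**
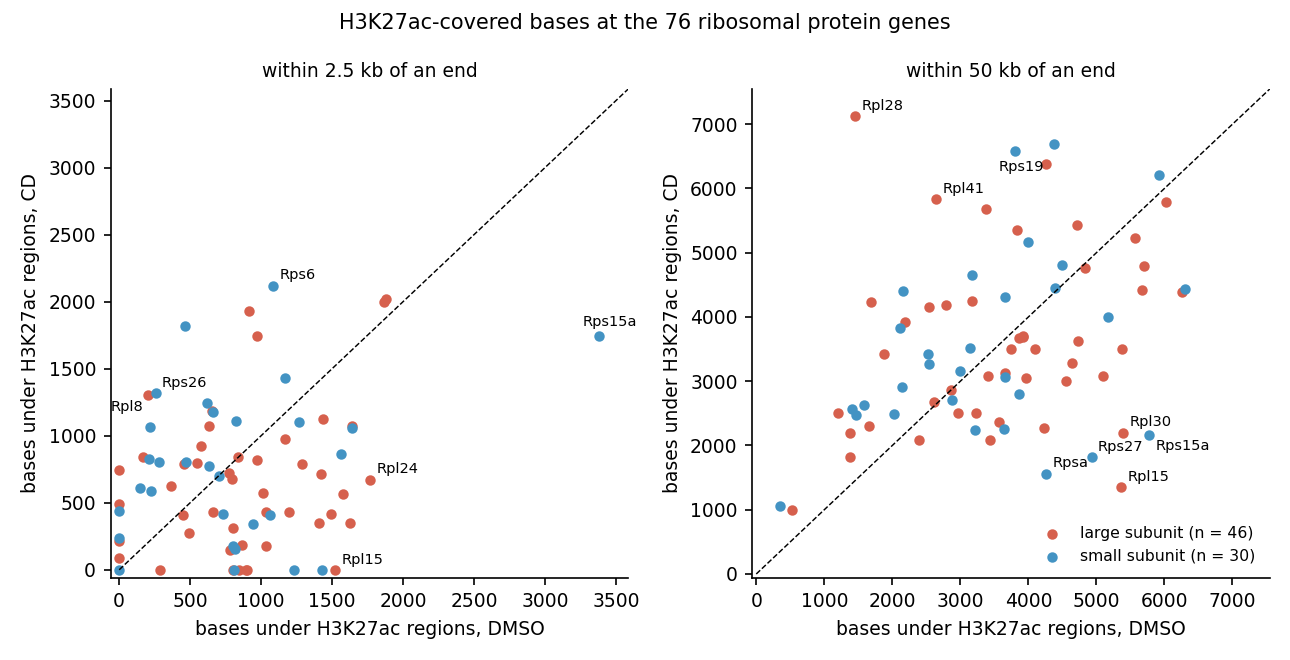
Bases under H3K27ac regions in DMSO (horizontal) and in CD (vertical) for each of the 76 members, within 2.5 kb (left) and within 50 kb (right) of an end, with large subunit genes in red, small subunit genes in blue and equal values on the dashed line. Near the ends 41 points lie below the line, with Rps15a far to the right at 3383 bases in DMSO, and within 50 kb the points fall on both sides, with Rpl28 highest at 7121 bases in CD.

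Genes that work with the ribosomal proteins are set against the bound shares given above, 56.6% of the members, 32.6% of all genes and 65.5% of genes marked in both lists. Among ribosomal protein genes outside the symbol rule, 6 of 12 were bound, led by Rpl3l, the muscle form of Rpl3 (17.6 and 38.3), and Rps27l (14 and 16.5), while Fau, which encodes a 40S protein fused to a ubiquitin-like protein, had a peak in replicate 2 only. At Rps27l only the replicate 1 peak lay within 1 kb of an end, and the replicate 2 peak it overlapped lay beyond that window. Ribosome biogenesis factors were bound in 19 of 30 cases, led by Dkc1, the pseudouridine synthase of snoRNPs (16.8 and 26.3), and Nop2 (15.0 and 21.9). Elongation factors and other genes of TOP mRNAs were bound in 11 of 13 cases, led by Tpt1 (21.4 and 30.8) and Eef1g (16.8 and 32.9). Regulators of ribosomal protein synthesis were bound in 10 of 13 cases, led by Rps6kb1, which encodes S6 kinase 1 (17.3 and 23.9), and Gabpa, the DNA-binding subunit of GABP (13.9 and 27.2). With 12 to 30 genes per list, the intervals of these shares, such as 54.6 to 98.1% for the TOP list, were wide, and each contained the members' 56.6%.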

How the data were processed

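CUT&Tag peak lists of OG2X129 mouse embryonic fibroblasts were analysed: 1 list for each H3K27ac condition and 1 for each Flag-Rxra replicate, assigned by the labels, although the names of single Flag-Rxra peaks hold codes that differ from the titles. Tools in the submitters' processing notes are MACS2 2.1.2, Bowtie2 2.2.5, deepTools 3.4.3 and fastp 0.20.1, with build mm10 and no roles. How H3K27ac replicates were combined, and whether a control library was used, the sources used here do not give. Fold is a ratio over the authors' estimated background, as deposited. Summits and −log10 q values are also the authors' deposited values. Depth is unknown. The H3K27ac lists, of the broad type, stop at a −log10 q of 1.00, the narrow Flag-Rxra lists at 5.00.

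Gene bounds and promoter windows came from RefSeq tables of GRCm38.p6, the assembly of mm10. Starts were known for 56 members, the most upstream 1 being used, and not for the others. Overlap meant 1 bp or more. Shared peaks are replicate 1 peaks overlapping a replicate 2 peak, and bound means a shared peak within 1 kb of either gene end. The best peak of a gene has the best mean rank of fold over both replicates. H3K27ac-covered bases were summed in the union of the windows of both ends. Intervals are exact (Clopper-Pearson, 95%) and cover counting error only. No p-value was computed, since each H3K27ac condition had 1 list and the members are not replicates.

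The members and gene lists were chosen with earlier results of these data known. Named by rule were the 12 best and 4 weakest bound members, members without a peak in 1 or both replicates, the 6 largest H3K27ac differences each way in each window, members without H3K27ac, the 2 best of each list, and Rplp0, Rplp1, Rplp2, Rpsa, Rps6, Rpl5 and Rpl11. Other members were named after their values were seen. Some members that these rules name are counted in the totals but not reported here by name. The computations used Python 3.11.15, numpy 2.4.6, pandas 2.3.3, scipy 1.17.1 and matplotlib 3.10.9, and the overlap, coverage and motif steps were tested on simulated data. Alternatives were stricter thresholds, other windows and overlaps, annotated starts, single replicates, H3K27ac lists of equal covered length, fold weighting and 1 member per locus. Signal tracks were not analysed here.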

Additional observations from a re-analysis of the deposited data

How the results depend on the processing

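The share of members with a shared Flag-Rxra peak within 1 kb of an end ranged from 69.7% to 80.3% when 1 replicate was left out, that is, with the peaks of the other replicate alone, and was 40.8% when 50% of both peaks had to overlap (20.2% of all genes). It stayed between 46.1% and 65.8% with a −log10 q of 20 or more, with windows of 250 bp, 500 bp and 2.5 kb, from annotated starts, without peaks in the strongest H3K27ac regions, and in members marked in both lists. In each of these settings it was above the share of all genes, except among genes marked in both lists. The H3K27ac shares were 14.5% in CD and 23.7% in DMSO at a −log10 q of 2 or more (all genes 6.65% and 8.84%), 63.2% and 71.1% with windows of 500 bp (27.4% and 27.8%), and 90.8% in DMSO with windows of 2.5 kb (49.4%). The share of members covered more in CD within 2.5 kb was 18.4% at a −log10 q of 2 or more, with 45 members equal, and within 50 kb it was 36.8% with equal covered lengths. At a −log10 q of 2 or more, the shares over the first 100 bases from the start, alternatives added after seeing the data, were 7.14% and 16.1% (all genes 2.48% and 4.58%). That threshold also turned the CD minus DMSO difference at Rps15a (65), Rpl8 (-204) and Rps26 (-256) within 2.5 kb and at Rpl30 (153), Rps20 (-1411) and Rpl6 (-7) within 50 kb. Of the 21 named differences, 6 thus reversed and 14 moved under it, and the 21 kept their direction and stayed within 1.5 times under fold weighting and equal covered lengths. With the window from 2.5 to 50 kb, 4 of 11 moved. The cause of these changes was not tested. No paired analysis was possible because both replicates of each H3K27ac condition share 1 list and no test was made. Depth is unknown, so a member without a called peak was not detected by the authors' caller, which does not show that the mark or the receptor was absent.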

Other observations

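Pseudogenes of ribosomal proteins, mostly copies of spliced mRNA that lack the promoter of the parent gene, seldom carried Flag-Rxra peaks. Of 316 annotated ribosomal protein pseudogenes, 4 (1.27%, interval 0.346 to 3.21%) had a shared peak within 1 kb of an end, against 43 of 76 genes. Over all 10429 annotated pseudogenes the share was 1.59%. H3K27ac regions lay within 1 kb of 37 of the 316 in CD (11.7%) and of 29 in DMSO (9.18%), where all pseudogenes gave 11.7% and 8.05%. Reads from near-identical copies can be lost or divided by mapping, and the sources used here do not give how the authors treated them.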
